A study of Mus musculus with 6 samples.

Results

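The chloride transporters behind the GABA switch, and the kinases that act on them, were followed in mouse retinal ganglion cells (RGCs) across birth. The genes were chosen by symbol and are the importer Slc12a2 (NKCC1), the extruders Slc12a5 (KCC2) and Slc12a7 (KCC4), the anion exchanger Slc4a3 (AE3), and the kinases Wnk1, Wnk3 and Stk39 (SPAK). All 7 were found among the 24060 genes of the count table, and all 7 were among the 16449 genes with enough reads to be tested. RNA-seq was carried out on RGCs of C57BL/6 mice, 3 samples from embryonic day 18 (E18, replicates 1, 3 and 4) and 3 from postnatal day 5 (P5, replicates 6, 8 and 9). No transgene, injury or treatment was used at either age. The cells were obtained from papain-dissociated retinas by immunopanning, in which macrophages are first removed and RGCs are then held on dishes coated with antibody against CD90 (Thy1). The labels do not say how many animals went into a sample, the count column of E18 replicate 1 is also marked 2 and 5, and p-values measure only the spread between these samples. Age and preparation cannot be told apart, since no batch or date is given.

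GABA and glycine open chloride channels, so whether they depolarise or inhibit a neuron depends on the chloride gradient. In immature neurons NKCC1 brings chloride in together with sodium and potassium, and the response is depolarising. As neurons mature, KCC2 moves chloride out with potassium and the response becomes inhibitory, a change known as the GABA switch. WNK kinases sense chloride and phosphorylate SPAK, which in turn activates NKCC1 and restrains the KCC transporters. In the rodent retina the switch falls in early postnatal life, while spontaneous waves of activity still pass through the RGC layer.

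The upstream DNA of the 2 members with the largest changes is shown so that it can be set beside the levels of factors known for Slc12a5. Whether those factors act on Slc12a7 was not tested. Slc12a5 has alternative first exons, and the RefSeq promoter table (build GRCm38.p6) holds a window at each of 2 start sites that lie 7142 bases apart on the plus strand of chromosome 2. Slc12a7 also has 2 windows, 37 bases apart on the plus strand of chromosome 13 and inside the annotated gene. The stretches are printed up to the next exon of the GENCODE annotation. Capitals mark CACGTG, the E-box bound by USF1 and USF2, and GTGGGCG, the core of the sequence bound by Egr factors.
Slc12a5, before the upstream start, chr2:164960596-164960801: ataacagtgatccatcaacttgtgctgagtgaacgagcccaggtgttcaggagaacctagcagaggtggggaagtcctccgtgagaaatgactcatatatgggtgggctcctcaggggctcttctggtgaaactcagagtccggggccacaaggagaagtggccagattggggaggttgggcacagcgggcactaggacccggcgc
Slc12a5, before the downstream start, chr2:164967738-164967982: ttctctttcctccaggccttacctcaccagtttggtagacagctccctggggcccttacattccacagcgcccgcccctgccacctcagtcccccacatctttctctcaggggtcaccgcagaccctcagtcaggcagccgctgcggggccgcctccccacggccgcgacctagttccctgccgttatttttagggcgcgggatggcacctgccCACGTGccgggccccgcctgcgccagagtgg
Slc12a7, around the first of its 2 starts, chr13:73763410-73763674: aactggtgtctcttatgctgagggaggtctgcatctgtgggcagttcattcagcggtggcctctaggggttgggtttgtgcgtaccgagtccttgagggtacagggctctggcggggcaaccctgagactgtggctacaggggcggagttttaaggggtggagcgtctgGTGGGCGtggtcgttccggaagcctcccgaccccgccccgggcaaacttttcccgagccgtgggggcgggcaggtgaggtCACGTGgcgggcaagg
Both motifs were sought on both strands of the full windows, which run from 250 bases before to 50 bases after a start, and they do not overlap each other. The E-box begins 36 bases before the downstream start of Slc12a5, and in Slc12a7 it begins 1 base before the first start and 38 bases before the second. Of all 32851 windows in the table, 7.15% hold the E-box and 7.97% hold the Egr core. The Egr core lies 81 bases before the first start of Slc12a7 and 77 bases before the start of Wnk1, and after the start of Stk39. Windows were found for 6 of the 7 members, and neither motif was matched in those of Slc4a3 and Wnk3. The upstream window of Slc12a5 held neither motif as well, and its downstream window held no Egr core. The counts do not separate transcripts from different starts of one gene.

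Libraries held 81213639 to 114512853 reads assigned to genes. Levels are given as CPM, counts scaled to library size by TMM, and fold changes as log2 of E18 over P5, so a negative value is higher at P5. RGC markers were high in every sample, with 276 to 329 CPM of Rbpms, and the sum of 15 RGC markers was 10625 to 12203 CPM at E18 and 10690 to 11701 at P5. Defining markers of other retinal cells were near 0, with at most 0.117 CPM of Gfap (astrocytes), 0.0120 of Tmem119 (microglia), 0.0609 of Cdh5 (endothelium) and 0.0362 of Grm6 (bipolar cells). E18 replicates 1 and 3 stood apart in several lists. The sum of 12 retinal progenitor markers was 312, 148 and 48.7 CPM in E18 replicates 1, 3 and 4, against 26.5 to 40.1 at P5, and that of 14 dividing-cell markers was 356, 142 and 86.1 CPM against 66.9 to 85.2. Tfap2b, an amacrine factor, had 47.5, 119 and 1.62 CPM in the same E18 samples and at most 1.55 at P5, and 9 endothelial and pericyte markers summed to 73.1, 64.9 and 16.6 CPM against 16.03 ± 1.81 (SD, n = 3) at P5. Most of that E18 sum was Kdr (69.5, 62.9 and 14.1 CPM), the only marker of its list called higher at E18. Pecam1, Tek and Rgs5 of the same list were called lower at E18. Sums that differed with age in all samples were those of 12 Müller glia and astrocyte markers (405 to 451 CPM at E18, 274 to 327 at P5), 9 oligodendrocyte markers (75.0 to 77.6 against 40.1 to 63.6) and 11 microglial markers (4.90 to 5.34 against 3.61 to 3.73), and that of 9 bipolar markers (584 to 667 against 305 to 379), most of which was Isl1, a factor RGCs share. Most of the Müller glia and astrocyte sum was Glul (313 to 326 CPM at E18, 230.4 to 273 at P5), and 7 of the 10 tested markers of that list were not called. Most of the oligodendrocyte sum was Mbp (44.2 to 47.8 CPM at E18, 24.9 to 46.2 at P5), which was not called. In that list Mog was called higher at E18, and Olig1 and Mag were called lower.

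Of the 7 members, 3 changed between the ages when tested by edgeR (quasi-likelihood, Benjamini-Hochberg adjusted p under 0.05, SE for the standard error below), with Slc12a5 and Slc4a3 lower at E18 and Slc12a7 higher. Among all genes tested 43.4% were called, 22.5% lower and 20.8% higher at E18, so the share of members called was close to the background. The same 3 members were those without overlap between the ages, against 56.1% of all genes tested (27.6% with E18 above and 28.5% with E18 below). The median log2 fold change of the members was -0.13, against 0.00 over all genes tested. Slc12a2, Wnk1, Wnk3 and Stk39 did not pass the test. In bulk RNA a lower level cannot be told apart from fewer cells carrying the transcript.

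**Figure D1:**
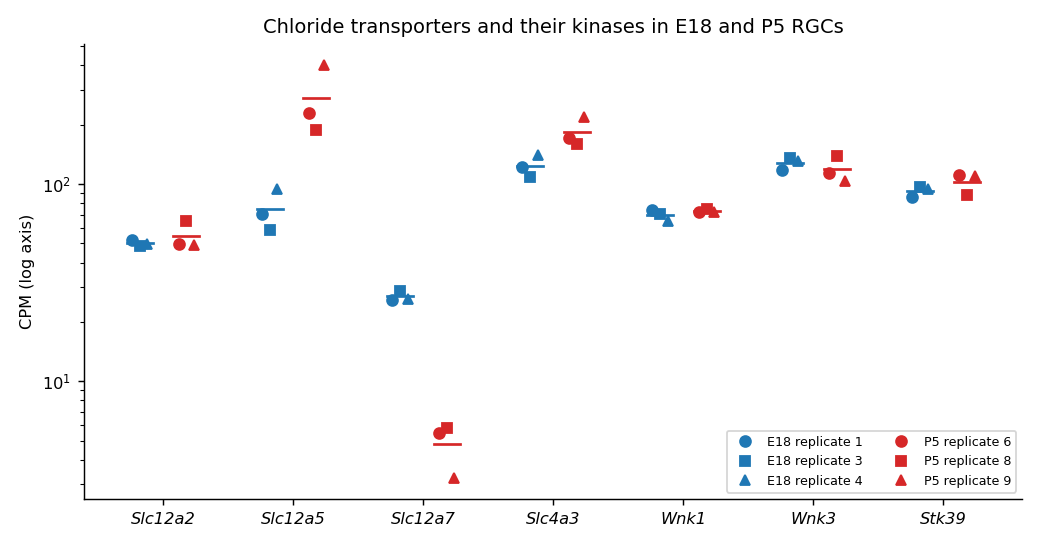
CPM of the 7 members (log axis) in 3 E18 samples (blue) and 3 P5 samples (red), each symbol being 1 sample and each bar the mean of an age. Slc12a5 lies between 58.3 and 93.9 at E18 and between 187 and 404 at P5, Slc12a7 lies between 25.9 and 28.8 at E18 and between 3.22 and 5.76 at P5, and Slc12a2 overlaps between the ages.

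Slc12a2, the chloride importer (ENSMUSG00000024597.11, chromosome 18 of mm10, 57878678 to 57946821, plus strand), did not pass the test. It had 52.1, 48.5 and 49.6 CPM in E18 replicates 1, 3 and 4 and 49.6, 65.2 and 49.2 CPM in P5 replicates 6, 8 and 9. The ages overlapped, and only P5 replicate 8 stood above the rest. The E18 mean was 50.1 ± 1.81 CPM and the P5 mean 54.7 ± 9.12 (SD, n = 3 each), which gave a log2 fold change of -0.13 (SE 0.124, edgeR adjusted p = 0.432), with a 95% interval of -0.41 to 0.15. Without P5 replicate 8 the value was 0.000629. The interval leaves room for a level at P5 of 0.899 to 1.33 times that at E18.

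Slc12a5, the neuronal chloride extruder (ENSMUSG00000017740.17, chromosome 2, 164960802 to 164999731, plus strand), was higher at P5. It had 70.9, 58.3 and 93.9 CPM in E18 replicates 1, 3 and 4, and 230.2, 187 and 404 CPM in P5 replicates 6, 8 and 9. Every P5 sample lay above every E18 sample, and P5 replicate 9 had more than the other P5 samples. The E18 mean was 74.4 ± 18.05 CPM and the P5 mean 274 ± 114 (SD, n = 3 each), and the fitted level at P5 was 3.68 times that at E18, with a 95% interval of 2.35 to 5.77. The log2 fold change was -1.88 (SE 0.285, edgeR adjusted p = 0.00146), and 573 of the genes tested had a more negative value. Without P5 replicate 9 it was -1.49 (edgeR adjusted p = 0.00175). The RGC markers Thy1 and Slc17a6 were also highest in P5 replicate 9, with 690.1 CPM of Thy1 against 499.5 and 469 in P5 replicates 6 and 8, and 939 CPM of the glutamate transporter Slc17a6 against 762 and 531, whereas Rbpms was lowest there among the P5 samples, with 290.5 CPM against 329 and 326. The part of this sample's makeup in the level of Slc12a5 was not tested.

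Slc12a7, a potassium and chloride cotransporter best known from epithelia (ENSMUSG00000017756.9, chromosome 13, 73733094 to 73816754, plus strand), went the other way. It had 25.9, 28.8 and 26.2 CPM in E18 replicates 1, 3 and 4 and 5.47, 5.76 and 3.22 CPM in P5 replicates 6, 8 and 9. The E18 samples were close together and all lay above the P5 samples. The means were 26.98 ± 1.60 and 4.82 ± 1.39 CPM (SD, n = 3 each), and the 95% interval of the fitted ratio was 4.01 to 7.81 times higher at E18. Its log2 fold change of 2.49 (SE 0.211, edgeR adjusted p = 0.000166) was exceeded by 161 of the genes tested. Without E18 replicate 1 the log2 fold change was 2.52. The Müller glia and astrocyte, oligodendrocyte, microglial and bipolar sums given above were, like Slc12a7, higher in every E18 sample than in any P5 sample. Of their tested markers, 3 of 10, 1 of 7, 1 of 9 and 3 of 7 were called higher at E18. In the same order of lists, 0, 2, 0 and 2 were called lower. Among all genes tested, 20.8% were called higher and 22.5% lower. The higher ones included Glul (313 to 326 CPM at E18, 230.4 to 273 at P5) and Vim (82.2 to 93.9 against 29.4 to 45.3) of the first list. The part of transcripts from these cell types in the result was not tested. P5 replicate 9, the highest P5 sample in Slc12a5, was the lowest in Slc12a7.

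Slc4a3, which exchanges chloride for bicarbonate and so carries chloride into neurons (ENSMUSG00000006576.16, chromosome 1, 75546266 to 75562172, plus strand), was moderately higher at P5. Its level was 123, 109 and 141 CPM in E18 replicates 1, 3 and 4 and 171, 159.7 and 219 CPM in P5 replicates 6, 8 and 9. All P5 samples lay above all E18 samples, and replicate 9 was again the highest. The means were 124 ± 15.9 and 183 ± 31.5 CPM (SD, n = 3 each), and the log2 fold change was -0.56 (SE 0.141, edgeR adjusted p = 0.0129), 1.48 times higher at P5. The call was lost without E18 replicate 3 (log2 fold change -0.47, edgeR adjusted p = 0.0571).

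The kinases upstream of the transporters showed small differences that did not pass the test. Wnk1 (ENSMUSG00000045962.16, chromosome 6, 119923969 to 120038672, minus strand) had 74.1, 70.8 and 65.0 CPM at E18 and 71.8, 74.8 and 72.0 CPM at P5. Its log2 fold change was -0.06 (SE 0.0878, edgeR adjusted p = 0.613), with a 95% interval of -0.26 to 0.14. Wnk3 (ENSMUSG00000041245.13, chromosome X, 151198078 to 151320152, plus strand), the family member known for high levels in the brain, had 117, 135 and 131 CPM at E18 and 114, 138 and 104 CPM at P5. The P5 samples enclosed the E18 range, and the log2 fold change was 0.11 (SE 0.1197, edgeR adjusted p = 0.496), with a 95% interval of -0.16 to 0.38. An antisense gene, A230072E10Rik, shares 4.94% of the exonic bases of Wnk3, and without a stated strand setting reads in that stretch could belong to either.

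Stk39, the gene of SPAK (ENSMUSG00000027030.15, chromosome 2, 68210445 to 68472268, minus strand), had 86.3, 96.7 and 94.3 CPM at E18 and 111, 87.8 and 110.3 CPM at P5. P5 replicate 8 lay within the E18 range and the others above it. The log2 fold change was -0.16 (SE 0.112, edgeR adjusted p = 0.288), with a 95% interval of -0.41 to 0.10. Without P5 replicate 8 it was -0.28 and passed (edgeR adjusted p = 0.0166). Among the P5 samples, replicate 8 was also the nearest to E18 in Slc12a5 and Slc4a3.

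Per kilobase of exon, which allows levels of different genes to be compared, Slc12a5 went from position 4 of the 7 members at E18 to position 1 at P5. At E18 the order by mean CPM per kilobase was Stk39 (18.7 ± 1.11), Slc4a3 (14.4 ± 1.84), Wnk3 (12.1 ± 0.888), Slc12a5 (9.99 ± 2.42), Slc12a2 (4.58 ± 0.166), Wnk1 (3.06 ± 0.202) and Slc12a7 (2.13 ± 0.127), each with the SD of n = 3. At P5 it was Slc12a5 (36.8 ± 15.4), Slc4a3 (21.3 ± 3.66), Stk39 (20.8 ± 2.65), Wnk3 (11.2 ± 1.66), Slc12a2 (5.01 ± 0.836), Wnk1 (3.19 ± 0.0738) and Slc12a7 (0.380 ± 0.1097), again with the SD of n = 3. At P5 the highest sample of Slc4a3 (25.5) lay just above the lowest of Slc12a5 (25.2), the samples of Slc4a3 and Stk39 overlapped, and with the longest transcript as length Stk39 came before Slc4a3 at P5. Wnk3 also overlapped with its neighbours Slc4a3 and Slc12a5 at E18.

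Set against each other within a library, which removes the scaling between samples, extruder and importer moved apart. Slc12a5 exceeded Slc12a2 per kilobase 1.997, 1.76 and 2.78 times in E18 replicates 1, 3 and 4, and 6.80, 4.21 and 12.03 times in P5 replicates 6, 8 and 9. The transcript of the extruder was thus the higher one already in each E18 sample, and each P5 sample had a larger ratio than each E18 sample. The size of the excess depends on the gene length used. With the longest transcript as length, the E18 means were 12.3 CPM per kilobase for Slc12a5 and 7.68 for Slc12a2. On the log2 scale the ratio of Slc12a2 to Slc12a5 was -1.10 ± 0.339 at E18 (SD, n = 3) and -2.81 ± 0.757 at P5 (SD, n = 3), a change of 3.28 times. The exact permutation test over the 6 samples gave a two-sided p of 0.1, the smallest that 3 samples against 3 allow. Protein levels and phosphorylation, which set the transport rate, were not measured.

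**Figure D2:**
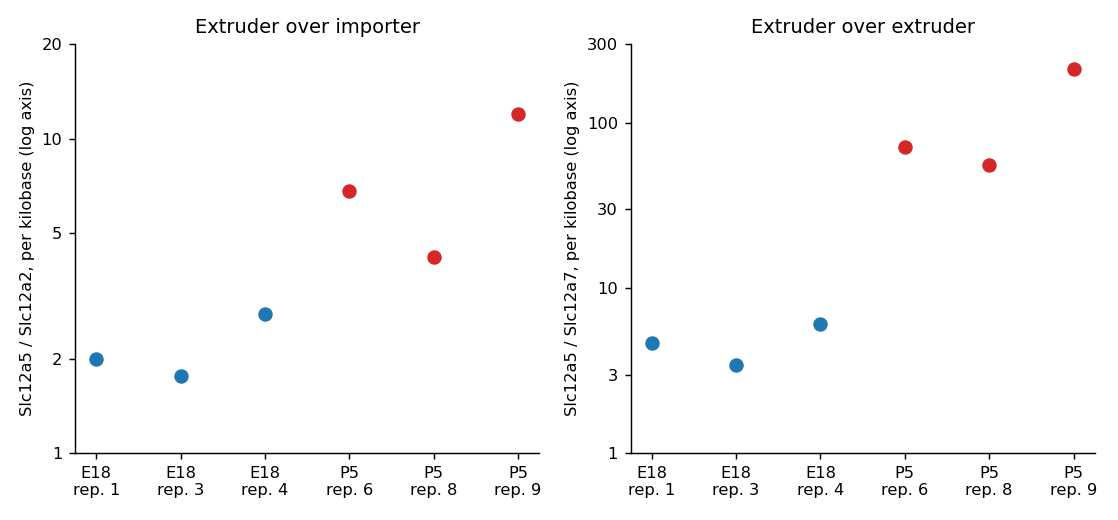
Level per kilobase of Slc12a5 over that of Slc12a2 (left) and of Slc12a7 (right), both on log axes, with 1 point for each sample, E18 in blue and P5 in red. The left ratio is at most 2.78 at E18 and at least 4.21 at P5, and the right ratio is at most 6.09 at E18 and at least 55.4 at P5.

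The extruders moved apart further. Slc12a5 exceeded Slc12a7 per kilobase 4.66, 3.44 and 6.09 times in E18 replicates 1, 3 and 4, and 71.6, 55.4 and 213 times in P5 replicates 6, 8 and 9. The ratio did not overlap between the ages, and it follows from the opposite changes of both genes given above. Slc12a4 (KCC1), a widely expressed relative, was scarce at both ages, with at most 1.27 CPM (log2 fold change 0.90, edgeR adjusted p = 0.144).

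Further SLC12 and SLC4 genes were described from lists, against shares of 20.8% higher and 22.5% lower at E18 among all genes tested. Of 5 other SLC12 genes, 1 was higher and 2 were lower at E18 (median log2 fold change -0.75, against 0.00 over all genes tested). Slc12a9, a relative that binds other cotransporters, had 24.4 to 28.7 CPM at E18 and 16.8 to 23.3 at P5 (log2 fold change 0.40, edgeR adjusted p = 0.0455), which 5 of the 6 fits without a sample no longer called. Slc12a8 was low at both ages, with 0.674 to 0.856 CPM at E18 and 1.15 to 1.68 at P5 (log2 fold change -0.98, edgeR adjusted p = 0.0151, and 0.0502 without E18 replicate 4). Of 9 other SLC4 genes, 1 was higher and 2 were lower at E18 (median 0.06). The largest change in either family after Slc12a7 was that of Slc4a10, a sodium-driven bicarbonate transporter of neurons, which had 29.3, 27.2 and 27.9 CPM at E18 and 142, 115.5 and 180.4 CPM at P5. The ages did not overlap, and the level at P5 was 5.19 times that at E18 (log2 fold change -2.37, SE 0.157, edgeR adjusted p = 7.72e-05). Slc4a4, the sodium bicarbonate cotransporter NBCe1, known from glia among other cells, was higher at E18, at 3.95 to 4.22 CPM against 1.17 to 2.33 (log2 fold change 1.12, edgeR adjusted p = 0.0105), and the part of the Müller glia and astrocyte transcripts given above was not tested.

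**Figure D3:**
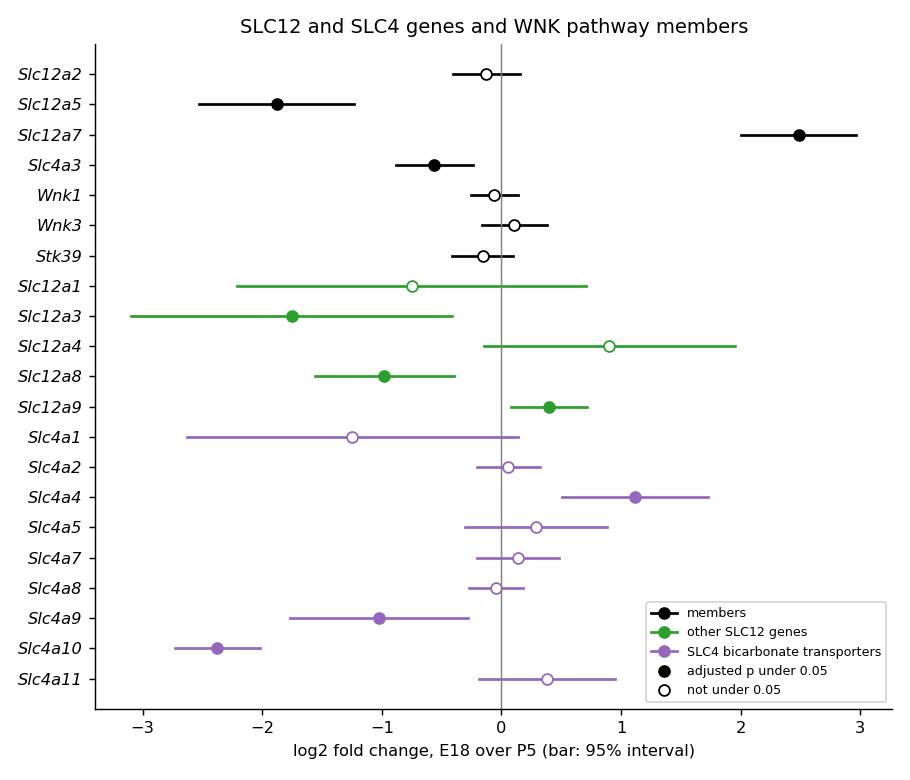
log2 fold change of E18 over P5 with its 95% interval for the 7 members (black), other SLC12 genes (green) and SLC4 genes (purple), filled where the adjusted p was under 0.05. Slc12a7 at 2.49 stands to the right, Slc12a5 at -1.88 and Slc4a10 at -2.37 to the left, and the intervals of Slc12a2, Wnk1, Wnk3 and Stk39 include 0.

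Bicarbonate also passes through GABA channels, and carbonic anhydrases supply it. Of 7 carbonic anhydrase genes 5 were tested, 2 were higher at E18 and 1 was lower (median log2 fold change -0.45). The shares among all genes tested were 20.8% and 22.5%. Car3 had 0.883 to 2.03 CPM at E18 and 4.27 to 9.51 at P5 (log2 fold change -2.26, SE 0.396), and Car14, a membrane-bound form, had 1.33 to 1.71 CPM at E18 and 0.338 to 0.528 at P5 (log2 fold change 1.74, SE 0.275). Car2, a cytosolic form, had 40.2, 40.6 and 16.4 CPM in E18 replicates 1, 3 and 4 and 13.9 to 18.14 at P5, so that it was high in the E18 samples with more progenitor and amacrine transcripts and overlapped with P5 in the remaining one. The call of Car2 was absent from 5 of the 6 fits without a sample, and the part of those transcripts in its level was not tested. Car7, the form tied to GABA responses in neurons, had 1.495 to 1.77 CPM at E18 and 1.60 to 3.03 at P5 and did not pass (log2 fold change -0.45, edgeR adjusted p = 0.194).

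Of 13 other genes of the WNK pathway 2 were higher and 2 lower at E18 (median 0.01), against 20.8% and 22.5% of all genes tested, and the number called was 2 to 5 in fits without 1 sample. Oxsr1 (OSR1), the close relative of SPAK, had 102 to 113 CPM at E18 and 107 to 121 at P5 and did not pass (log2 fold change -0.09, 95% interval -0.30 to 0.11). Wnk2 had 61.9, 53.7 and 53.5 CPM at E18 and 31.1, 49.1 and 38.3 CPM at P5 (log2 fold change 0.51, edgeR adjusted p = 0.0303), with the call lost in 5 of the 6 fits without a sample. Nedd4l, a ubiquitin ligase, was higher at E18 (log2 fold change 0.54, SE 0.102), with 70.0 to 78.5 CPM against 46.1 to 56.0. Klhl2, an adaptor through which WNK kinases are degraded, was lower, with 55.1 to 64.4 CPM against 78.9 to 89.0 (log2 fold change -0.49, SE 0.0971). Sgk1, a kinase that acts on Nedd4l, was lower as well, at -0.38, and lost its call in 5 of the 6 fits.

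Of 11 factors and partners known for KCC2, 4 were higher at E18 and 3 were lower (median -0.03), against 20.8% and 22.5% of all genes tested. Rest, the repressor of neuronal genes to whose targets Slc12a5 belongs, had 20.5, 18.41 and 12.4 CPM in E18 replicates 1, 3 and 4, and 6.24, 10.8 and 4.68 CPM in P5 replicates 6, 8 and 9. All E18 samples lay above all P5 samples, and Rest was higher in E18 replicates 1 and 3, which held more progenitor and Tfap2b transcripts, than in replicate 4, a part that was not tested. The log2 fold change was 1.24 (SE 0.304, edgeR adjusted p = 0.0115), and the call was lost without P5 replicate 6 (edgeR adjusted p = 0.0586). Usf1 and Usf2, which bind the E-box shown above, were higher at E18, with log2 fold changes of 0.60 and 0.33 (edgeR adjusted p = 0.00664 and 0.0317). Both are named because of that motif. Egr4, an activator of Slc12a5, was low at both ages, with 0.284 to 0.665 CPM (log2 fold change -0.06, 95% interval -0.91 to 0.80).

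Of the partners of the protein, Ckb (creatine kinase B, log2 fold change -0.03, edgeR adjusted p = 0.818) and Epb41l1 (a cytoskeletal linker, -0.16, edgeR adjusted p = 0.238) did not pass the test. Neto2, an auxiliary subunit that binds KCC2, had 124, 129.6 and 138.6 CPM at E18 and 234, 139.5 and 214 CPM at P5 (log2 fold change -0.58, edgeR adjusted p = 0.0252). P5 replicate 8 lay just above the E18 samples, and 4 of the 6 fits without a sample no longer called it. Pacsin1, an endocytic protein found with KCC2, was higher at P5, with 47.9 to 74.5 CPM against 23.9 to 30.04 (log2 fold change -1.17, SE 0.170). Grik2, a kainate receptor subunit that binds KCC2, was higher at E18, with 55.3 to 76.1 CPM against 24.5 to 33.7 (log2 fold change 1.14, SE 0.156).

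The channels through which chloride flows were examined last. Of 24 GABA-A and glycine receptor subunits 20 were tested, and 14 were lower and 2 higher at E18, against 22.5% and 20.8% of all genes tested. Their median log2 fold change was -1.14. Gabrg1, a gamma subunit, had 4.69, 4.42 and 4.84 CPM at E18 and 52.6, 50.6 and 58.5 CPM at P5, which was 11.6 times higher at P5 (log2 fold change -3.54, SE 0.113, edgeR adjusted p = 4.41e-06). Glrb, the glycine receptor beta subunit, had 26.2, 25.4 and 31.9 CPM at E18 and 193, 105 and 229 CPM at P5 (log2 fold change -2.66, SE 0.262), again with P5 replicate 9 highest and replicate 8 lowest. Gabrd, the delta subunit, was called higher at E18 from 4.92, 8.49 and 0.0884 CPM against 0.396 to 0.840 at P5. Its high values were in E18 replicates 1 and 3, which also held the Tfap2b transcripts, the ages overlapped, and 5 of the 6 fits without a sample no longer called it. Gabrq, the theta subunit, had 4.32 to 6.47 CPM at E18 and 2.43 to 3.74 at P5, and lost its call in 5 of the 6 fits.

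Of 21 other chloride channel genes 19 were tested, with 4 higher and 6 lower at E18 (median -0.08). Among all genes tested, 20.8% were higher and 22.5% lower. Ttyh1, a tweety family protein, had 16.8, 8.45 and 11.3 CPM at E18 and 45.9, 32.6 and 63.1 CPM at P5 (log2 fold change -1.96, SE 0.293, edgeR adjusted p = 0.00138). Clcn2, a voltage-gated channel that lets chloride leave neurons, was higher at E18, with 71.1 to 82.5 CPM against 38.5 to 42.8 (log2 fold change 0.93, SE 0.0973, edgeR adjusted p = 0.000355). Clcn1, its relative of skeletal muscle, was higher at E18 at low levels, with 5.11 to 6.46 CPM against 2.39 to 4.19, and lost its call in 3 of the 6 fits without a sample. Lrrc8c, a subunit of volume-regulated channels, was lower at E18, with 6.88 to 9.11 CPM against 11.2 to 11.96, and was no longer called without E18 replicate 1 (edgeR adjusted p = 0.0562) or E18 replicate 3 (edgeR adjusted p = 0.0859).

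**Figure D4:**
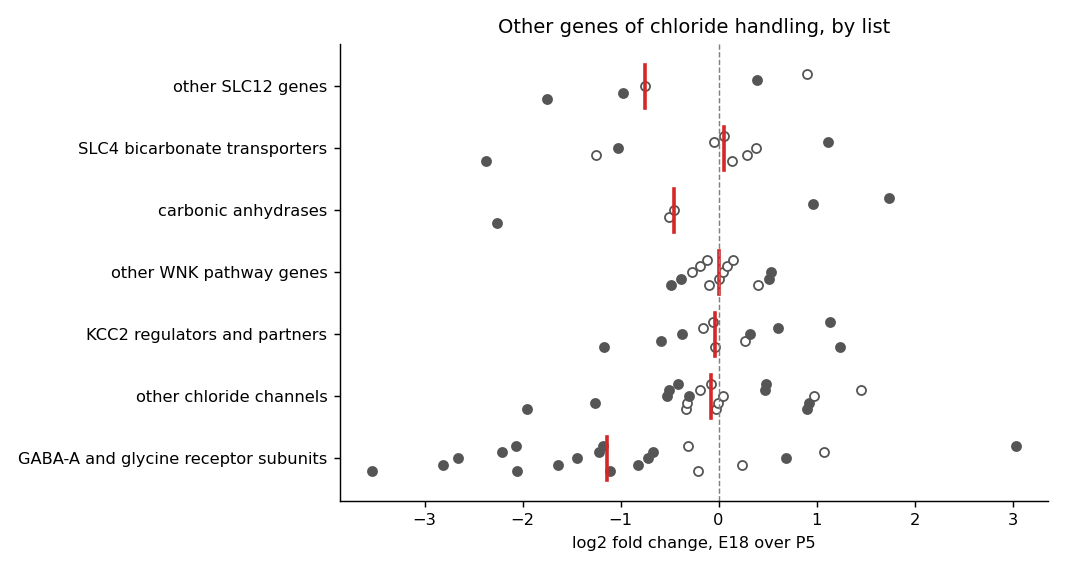
log2 fold change of E18 over P5 for each tested gene of the 7 lists of related genes (points, filled where the adjusted p was under 0.05), with the median of each list (red bar) and of all genes tested (dashed line). The receptor subunits have a median of -1.14, and those of the remaining lists lie between -0.75 and 0.06.

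The genes with a pattern most like those of the importer and the extruder were found by the root mean square distance between log2 CPM profiles, each centred on its mean over the 6 samples, among 9725 genes of at least 10 CPM on average. Nearest to Slc12a5 were Nefh, the heavy neurofilament subunit (distance 0.0932), Grik3, a kainate receptor subunit (0.155), and Cacna1g, a T-type calcium channel (0.167). Nefh had 16.2, 15.5 and 20.8 CPM at E18 and 55.9, 41.3 and 96.8 CPM at P5, with the same order of samples within P5 as Slc12a5. Nearest to Slc12a2 were the phosphatase gene Ptpn11 (0.0348), Tmem161b (0.0447) and Haus2 (0.0460), which share with it a value in P5 replicate 8 above those of the other samples. The genes near Slc12a5 and Slc12a2 were chosen for likeness over these same 6 samples, so the features they share are no separate result.

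**Figure D5:**
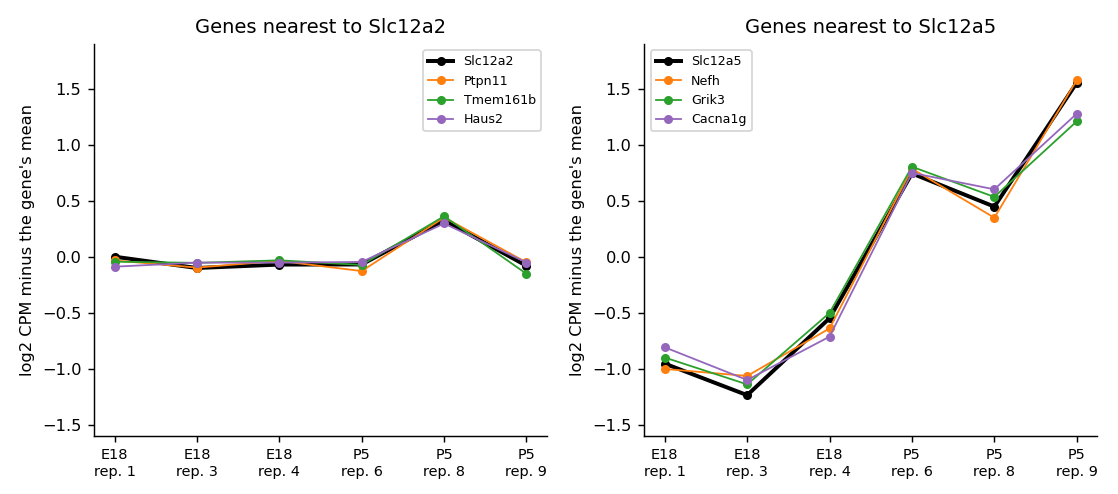
log2 CPM minus the mean of the gene over the 6 samples for Slc12a2 (left) and Slc12a5 (right) in black, with the 3 nearest genes of each in colour, where lines only join the values of a gene. Slc12a2 and its neighbours are highest in P5 replicate 8, and Slc12a5 and its neighbours are lowest in E18 replicate 3 and highest in P5 replicate 9.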

How the data were processed

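RNA was sequenced from 3 E18 and 3 P5 samples after ribosomal RNA depletion, although the labels name polyA RNA. Per the methods and labels, the authors aligned reads to mm10 with STAR and deposited raw read counts on RefSeq genes from HT-seq. The normalized counts deposited by the authors are a signal scaled for library size. The log2 fold changes, the p-values with false discovery rates, and a rank score were also deposited by the authors, from EdgeR. None of these was used. The strand setting and the handling of reads mapped to several genes are not stated. Only the raw counts were tested, with edgeR 4.0.16 in R 4.3.3 (TMM, expression filter, quasi-likelihood test, Benjamini-Hochberg over 16449 genes, threshold 0.05). Replicates differed by more than sampling noise (chi-square per degree of freedom 30.5 to 141), and the spread between samples sets the precision. Exact permutation tests used scipy 1.17.1. Positions and exon lengths are from GENCODE M21 (mm10), matched by symbol, and promoters are from RefSeq. Epb41l1 and Clcn4 were found under the synonyms Epb4.1l1 and Clcn4-2. From each list of related genes, up to 2 called in each direction with the largest change and a mean of at least 1 CPM are named. Slc12a4, Oxsr1, Car7, Ckb, Epb41l1, Usf1, Usf2 and Egr4 were added after their values were seen. Some planned values are not reported here. The members and lists were chosen with earlier results of these data known. Alternatives tried were the exact test of edgeR, DESeq2 1.42.0, upper-quartile normalization, no expression filter, the longest transcript as gene length and fits without 1 sample.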

Additional observations from a re-analysis of the deposited data

How the results depend on the processing

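Slc12a5 and Slc12a7 kept their direction and their call under all 10 alternatives run, with log2 fold changes of -2.11 to -1.49 and 2.26 to 2.62. In fits without 1 of the samples, Slc12a2 ranged from -0.21 to 0.000629, Slc4a3 from -0.67 to -0.42 and Stk39 from -0.28 to -0.10. The reversal of Slc12a2, from -0.13, came without P5 replicate 8. Over the same omissions the number of members called was 2 to 4, and that of all genes tested was 4575 (without E18 replicate 3) to 8796, against 7135. Among the lists it was 0 to 3 for other SLC12 genes, 2 to 5 for the WNK pathway, 4 to 7 for KCC2 regulators and 6 to 12 for other chloride channels. Of the 23 genes named from the lists, 11 lost their call in at least 1 such fit. Gabrd also lost it with DESeq2 (adjusted p = 0.0527) and with upper-quartile normalization. No other scaling, test or filter changed the call of a member, and the largest shift of the median over all genes was -0.0195, without P5 replicate 8. The cause of these changes was not tested, beyond the smaller number of samples. No paired analysis was possible because the ages share no replicate number.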
